A study of Homo sapiens with 9 samples.

Results

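The carcinoma line MIII was compared with the in situ line MII, gene by gene, in cell lines of the MCF-10A breast series. The comparison rests on 6 of the 9 arrays of the series, the 3 whose titles name MIII and the 3 whose titles name MII. Of 19775 genes with a probe set of their own on the array, 12594 were tested, and 1476 of these (11.7%) were called, which means a Benjamini-Hochberg adjusted p under 0.05 in limma and a change of at least 2-fold. Called genes numbered 777 higher in MIII (6.17% of those tested) and 699 lower (5.55%). MII is the line MCF-10AT1Kcl2, labelled carcinoma in situ, and MIII is MCF-10A1h, labelled carcinoma. The labels give no treatment, and both lines grew in the same DMEM/F12 medium with 5% horse serum, insulin at 10 µg/ml, cholera toxin at 0.1 µg/ml, hydroxycortisone at 0.5 µg/ml and epidermal growth factor at 20 ng/ml. As background, MCF-10A is a breast epithelial line that does not form tumours, and its derivatives of this series carry activated HRAS, so both groups share that oncogene. Each stage is represented by 1 cell line, so differences between stages and between these particular lines cannot be told apart. The arrays are labelled biological replicates, but no label says that each had its own culture. The p-values therefore speak only of the variation from array to array, some of which may be technical. The metastatic line MIV (MCF-10A1a, 3 arrays) entered the filter, the choice of probe set and the estimate of spread, and is not compared here.

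Epithelial cells are held in sheets by tight junctions, adherens junctions and desmosomes, and their identity is kept by transcription factors such as the grainyhead-like and OVOL proteins and by the splicing regulator ESRP1. Transcription factors of the ZEB, SNAI and TWIST families bind E-box sequences in promoters of junction genes and can repress them. Cells in which this happens lose junctions, gain vimentin and neuronal cadherin and lay down fibronectin-rich matrix, a change known as the epithelial-mesenchymal transition (EMT), which is much studied in breast carcinoma.

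Signals are MAS5 values, a summary brightness for each probe set on a linear scale, scaled by the submitters to the same mean on every array. Changes are differences of log2(signal + 18.3), where the added offset is the pooled 25th percentile of all values. This offset scale understates the change of dim genes, and signals under the pooled median of 69.3 do not rank genes by ratio. Beside a signal the error is the SD of 3 arrays, and beside a log2 change it is limma's standard error. Array medians ranged from 69.0 to 71.7 in MII and from 72.1 to 74.9 in MIII. The 3′ to 5′ signal ratio of the actin control probes, a sign of RNA length, was 1.20 to 1.25 in MII and 1.17 to 1.23 in MIII, and that of GAPDH was 1.06 to 1.17 and 0.974 to 0.988. Log signals, compared across probe sets that are not independent of each other, correlated at a mean r of 0.974 within MII, 0.976 within MIII and 0.948 between the lines. One MIV array stood apart in its bioB spike-in, at 2128 against 652 to 957 on the other arrays, and without it 1478 genes were called. Both lines gave bright signals for epithelial keratins: KRT5 read 25794 ± 922 in MII and 26308 ± 677 in MIII, and KRT18, a keratin of simple epithelia, read 36196 ± 1160.5 in MII and 23075 ± 373 in MIII. Precision is limited by having 3 arrays a line: the standard errors of the log2 changes had a median of 0.11.

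In MIII, many genes of epithelial junctions, several kallikreins and many cornified-layer proteins were lower than in MII, and many genes of the extracellular matrix, insulin-like growth factor binding proteins and several cytokines were higher. Lists of genes are described by the members that passed the signal filter. A member dim in one line could pass through the other. The median without the filter is therefore given for several lists where it moved by over 1.5 times. Every count of list members that rose or fell is to be read beside the shares of all genes tested, 6.17% and 5.55%. Of the called genes, 258 rose and 241 fell by at least 4-fold, and 36 rose and 46 fell by at least 16-fold on the offset scale. The median size of a called change was 1.62 in log2. The 3 arrays of one line all lay above the 3 of the other for 1465 of the called genes (99.3%), and for 55.3% of all genes tested. With no fold minimum, 5946 genes (47.2%), the called ones included, had an adjusted p under 0.05 in limma. The median change over all genes tested was -0.016. The largest limma adjusted p among the 297 called genes that belong to the gene lists or to the 30 leading genes was 0.0182. Among all 1476 called genes it was 0.0479. Each change below that is said to rise or fall passed at 0.0182 or lower in those 297 genes, and at 0.0479 or lower in others.

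**Figure D1:**
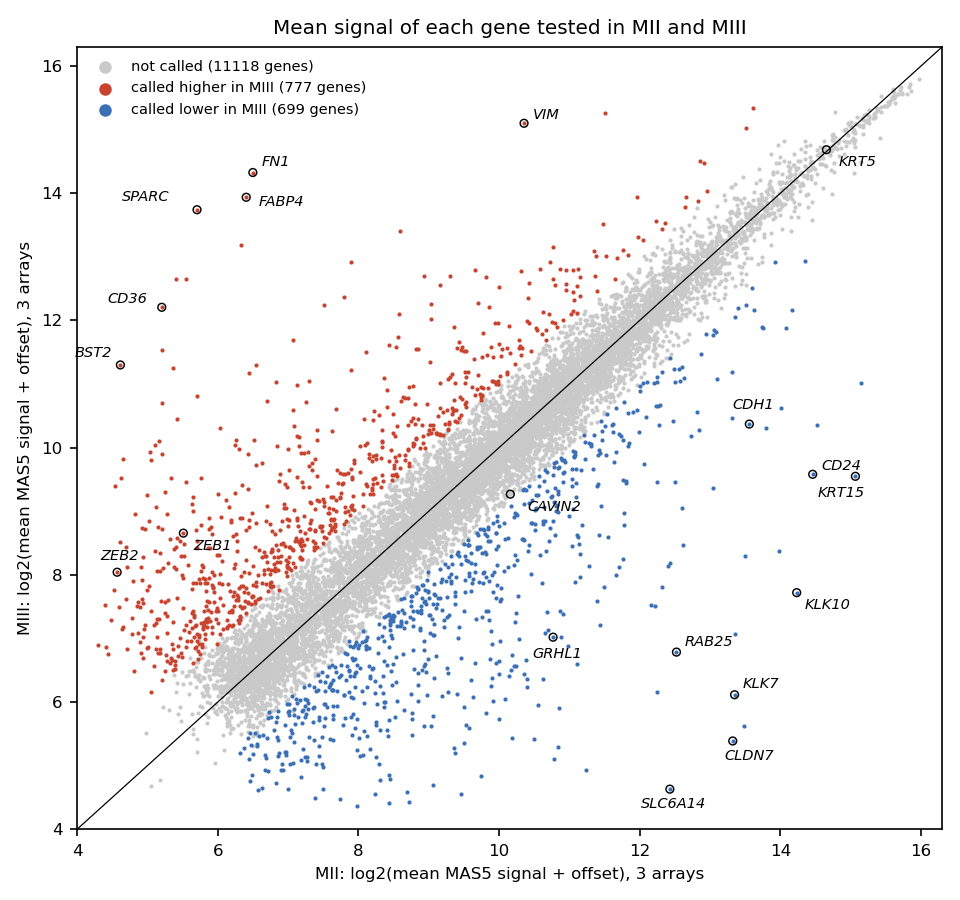
Mean MAS5 signal of the 12594 tested genes in MII (horizontal axis) and MIII (vertical axis), both as log2(mean of 3 arrays + offset), with the diagonal marking equal signals. The 777 genes called higher in MIII are red, the 699 called lower are blue and the rest grey; SPARC, FN1 and FABP4 lie far above the diagonal and CLDN7 and SLC6A14 far below it, while KRT5 lies on it.

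CLDN7, a claudin that seals tight junctions, had the largest fall on the offset scale. Its signal was 9957, 10099.8 and 10641 on the MII arrays and 8.6, 13.4 and 48.5 on the MIII arrays. The 3 MIII arrays thus lay under the pooled median, far from the lowest MII array, and the log2 change was -8.06 ± 0.23 (limma adjusted p = 4.25e-12). PSCA, a surface antigen first described in prostate, read 11889, 10925 and 11641 on the MII arrays and 12.8, 46.3 and 33.6 on the MIII arrays and fell by 7.93 ± 0.19 in log2. SLC6A14, a carrier of neutral and cationic amino acids, read 5532, 5528 and 5427 on the MII arrays and 4.2, 13.5 and 1.6 on the MIII arrays and fell by 7.83 ± 0.17. All 3 of these genes were bright on every MII array and under the pooled median on every MIII array, so the lines did not overlap. Their order depends on the offset: SLC6A14 had the larger fall with an offset of 1 (-9.89 against -9.07 for CLDN7), and PSCA with the pooled median as the offset (-6.86 against -6.82). The kallikrein KLK7, a secreted serine protease of the skin surface, read 10462, 10123 and 10678 on the MII arrays and 49.6, 57.2 and 45.9 on the MIII arrays and fell by 7.24 ± 0.13. Another 3 kallikreins followed, with log2 changes of -6.52 ± 0.20 for KLK10, -6.31 ± 0.11 for KLK6 and -5.61 ± 0.07 for KLK5. On its brightest probe set without a cross-hybridisation suffix KLK10 changed by -3.18. GABRP, a subunit of a GABA-gated chloride channel, fell by 6.42 ± 0.25, and the cell adhesion antigen CEACAM6 fell by 6.10 ± 0.11. The protease inhibitor A2ML1 fell by 5.75 ± 0.25 (-1.90 on its suffix-free probe set), and RAB25, a small GTPase of apical recycling endosomes, fell by 5.74 ± 0.07. CLDN4, another claudin, fell by 5.58 ± 0.18, and the basal keratin KRT15 read 34334 ± 726 in MII and 730.4 ± 49.9 in MIII, a log2 change of -5.52 ± 0.07 that left it above the pooled median. PLAC8 and EPS8L1 completed the 15 largest falls, with log2 changes of -5.20 ± 0.10 and -5.19 ± 0.26, the latter -3.38 with averaged probe sets.

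SPARC, a matrix glycoprotein that binds collagen, had the largest rise among the probe sets that stood for a gene. It read 34.8, 35.5 and 31.1 on the MII arrays and 12935, 14542 and 13535 on the MIII arrays, a change from under the pooled median on all MII arrays to a bright signal on all MIII arrays. Its log2 change was 8.04 ± 0.14 (limma adjusted p = 1.46e-14). FN1, which encodes fibronectin, read 59.4, 93.8 and 62.9 on the MII arrays and 20955, 21544 and 19064 on the MIII arrays and rose by 7.85 ± 0.13. Other probe sets of FN1 gave 8.36 and 8.05, above the SPARC value, and its brightest suffix-free probe set, with means of 21.7 in MII and 100.2 in MIII, gave 1.69, while SPARC gave 5.47 on its own. FABP4, a cytoplasmic fatty acid carrier best known from adipocytes, read 82.3, 59.1 and 57.6 on the MII arrays and 15863, 15713 and 15414 on the MIII arrays and rose by 7.55 ± 0.24. As for SPARC, the dimmest MIII array of both genes lay far above the brightest MII array. IGFBP4, which binds insulin-like growth factors, rose by 7.36 ± 0.31, and SRGN, the core protein of an intracellular proteoglycan, by 7.16 ± 0.23. CD36, a scavenger receptor that takes up long-chain fatty acids, read 28.1, 14.1 and 13.3 on the MII arrays and 4704, 4359 and 5060.0 on the MIII arrays and rose by 7.03 ± 0.20. The collagen VI chains COL6A1 and COL6A2 rose by 6.88 ± 0.32 and 5.17 ± 0.26, although on their suffix-free probe sets the changes were 4.02 for COL6A1 and 0.83 for COL6A2, the latter short of a call. BST2, an interferon-induced protein that tethers budding viruses, read 6.9, 6.6 and 5.0 on the MII arrays and 2594, 2766 and 2147 on the MIII arrays and rose by 6.68 ± 0.11. ENPP2 encodes autotaxin, the enzyme that makes lysophosphatidic acid, and rose by 6.44 ± 0.32. GNG11, a G-protein gamma subunit, rose by 5.95 ± 0.32, and the matricellular proteins POSTN and CCN3 by 5.55 ± 0.27 and 5.32 ± 0.42. PRSS21, a membrane-anchored serine protease known from testis, rose by 5.21 ± 0.30, and the alpha-tubulin TUBA1A by 5.04 ± 0.12. An exact permutation test (two-sided) of CLDN7 and of SPARC alone gave p = 0.1 each, below which 3 arrays against 3 cannot go.

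**Figure D2:**
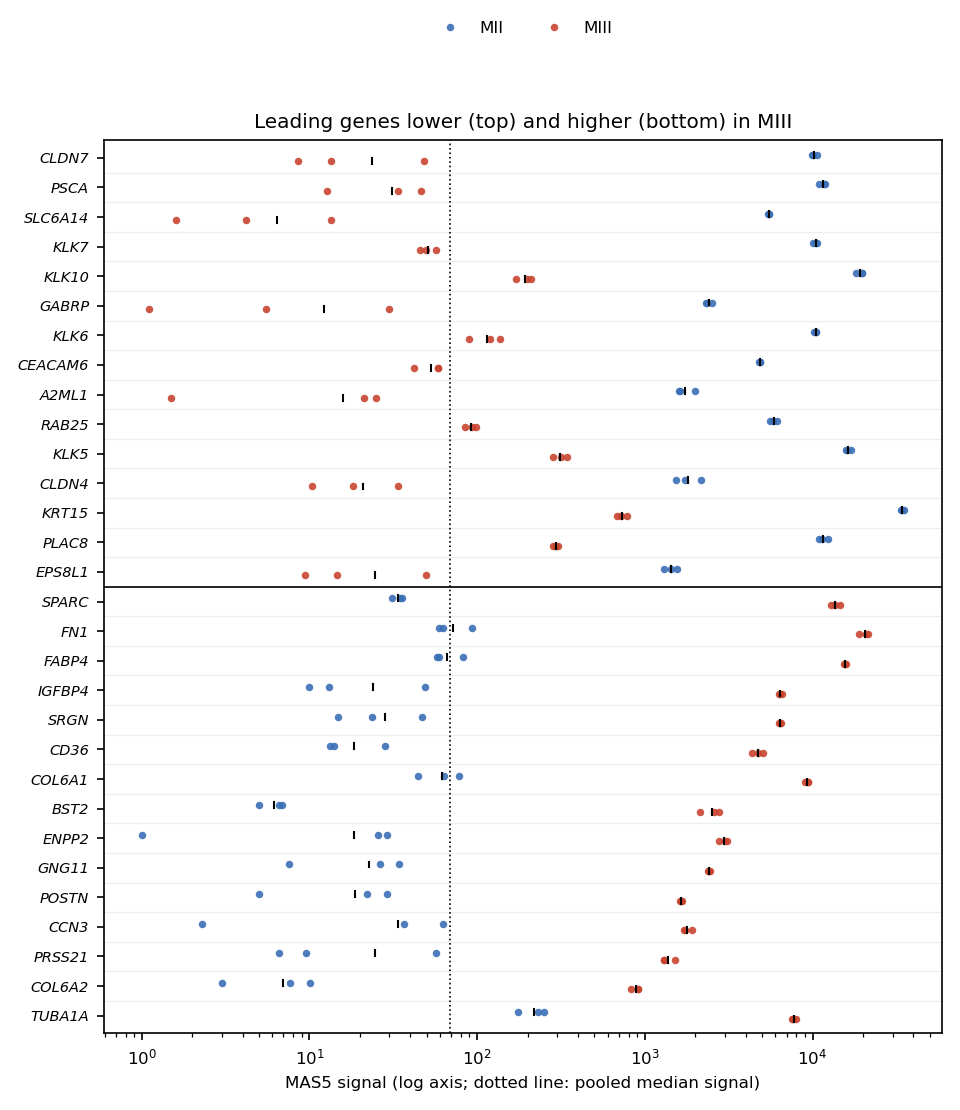
MAS5 signal on each array for the 15 largest falls (upper rows) and the 15 largest rises (lower rows) in MIII against MII, on a log axis, with MII arrays in blue, MIII arrays in red, a black tick at each mean of 3 arrays and a dotted line at the pooled median of 69.3. For every gene shown the 3 arrays of one line lie apart from the 3 of the other, and many genes are at or under the dotted line in one line and bright in the other.

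Most tight junction genes were lower in MIII. Of 17 members tested, 15 fell and 0 rose, with a median log2 change of -2.03, beside 5.55% of all genes that fell and a median of -0.016. Of 11 claudins tested, on the list or not, 5 fell and 1 rose: CLDN7 and CLDN4 fell as given above, CLDN8 changed by -3.997 ± 0.27, CLDN1 by -2.32 ± 0.06 and CLDN12 by -1.05 ± 0.08, and CLDN15 rose by 2.12 ± 0.39. CLDN12 was short of 2-fold with a larger offset, the pooled median in place of the 25th percentile (-0.99), and without MII replicate 1 (-0.98). OCLN, which encodes occludin, a membrane protein of the same strands, read 1474, 1438 and 1543 on the MII arrays and 70.2, 14.5 and 47 on the MIII arrays and fell by 4.71 ± 0.25. The polarity protein LLGL2 fell by 3.62 ± 0.20, and CGN (cingulin), which ties tight junctions to actomyosin, fell by 3.54 ± 0.20. CRB3, the apical Crumbs protein of epithelia, read 496, 531 and 521 on the MII arrays and 114, 89.3 and 139 on the MIII arrays and fell by 2.03 ± 0.16. The members that were not called, PARD6B and the scaffold TJP1, had changes of -0.83 ± 0.20 and -0.67 ± 0.06. Strand proteins, plaque proteins and polarity proteins were all among the genes that fell.

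Adhesion and surface proteins of epithelial cells followed the same direction, with 21 of 24 tested members lower, 0 higher and a median of -2.28. CDH1, the epithelial cadherin of adherens junctions, read 12383, 11782 and 11999 on the MII arrays and 1281, 1342 and 1291 on the MIII arrays. Its MIII signal was lower on every array but still well above the pooled median, and the log2 change was -3.19 ± 0.05 (limma adjusted p = 3.53e-15). CD24, a glycosylated surface antigen that is high on luminal cells, read 21396, 23592 and 22592 on the MII arrays and 665, 792 and 784 on the MIII arrays and fell by 4.88 ± 0.07. The receptor ERBB3 read 836, 685 and 698 on the MII arrays and 4.6, 58.9 and 26.3 on the MIII arrays and fell by 4.14 ± 0.31. It ended under the pooled median, as did the membrane protein TMEM125 (-4.19 ± 0.17) and the membrane serine protease PRSS8 (-4.04 ± 0.12). RAB25 read 6180.0, 5839 and 5584 on the MII arrays and 98.1, 84.6 and 92.9 on the MIII arrays, and BSPRY fell by 3.69 ± 0.17. EPCAM, the epithelial cell adhesion molecule, fell by 2.20 ± 0.07 but kept a signal of 3737 ± 74.5 in MIII. S100A14, a calcium-binding protein of epithelia, read 16064, 16316 and 16906 on the MII arrays and 1582, 1476 and 1615 on the MIII arrays and fell by 3.38 ± 0.05. AP1M2, the epithelial clathrin adaptor subunit that sorts cargo to the basolateral membrane, read 2133, 2164 and 2130.3 on the MII arrays and 248, 197 and 209.9 on the MIII arrays and fell by 3.20 ± 0.08.

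Promoters of several of these genes hold the E-box hexamer CACCTG, the sequence bound by ZEB and SNAI factors. It was searched on both strands (CACCTG or its reverse complement CAGGTG, which do not overlap) in RefSeq windows of GRCh38.p14 from 250 bases before to 50 after each gene's start. At least 1 match was found in 22 of 41 windows (53.7%) of the 25 genes with a window among the 36 called tight junction and adhesion genes. All 35116 promoter windows held one in 20.6% of cases, and of the 14889 windows of tested genes 19.0%. Counting genes with a single window only, the shares were 11 of 17 (64.7%) of the called junction and adhesion genes, 18.5% of 7295 tested genes and 20.8% of all 22114. Since 15 of 17 and 21 of 24 tested members of these lists fell, the shares compare the lists with the genome. They do not compare genes that fell with genes that did not. The single windows of CLDN4, TMEM125, CGN, CLDN1, MARVELD2 and CLDN12 held 0 matches. These genes had log2 changes of -5.58, -4.19, -3.54, -2.32, -1.25 and -1.05. A match is a description of the letters in a window, not evidence of binding in these cells. The 150 bases before the start are printed here for 4 genes with a single window and at least 1 match in that stretch, 5′ to 3′ on the gene's strand, with each match in capitals, to show how the hexamer lies in promoters of genes that fell.
AP1M2 (chr19:10587313-10587462, minus strand): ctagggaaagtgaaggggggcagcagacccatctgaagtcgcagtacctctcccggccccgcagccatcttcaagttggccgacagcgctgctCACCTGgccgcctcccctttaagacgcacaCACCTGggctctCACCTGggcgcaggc
CRB3 (chr19:6464121-6464270, plus strand): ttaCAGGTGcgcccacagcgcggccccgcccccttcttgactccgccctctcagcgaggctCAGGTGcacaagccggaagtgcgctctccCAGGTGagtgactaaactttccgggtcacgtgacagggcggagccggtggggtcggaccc
RAB25 (chr1:156061010-156061159, plus strand): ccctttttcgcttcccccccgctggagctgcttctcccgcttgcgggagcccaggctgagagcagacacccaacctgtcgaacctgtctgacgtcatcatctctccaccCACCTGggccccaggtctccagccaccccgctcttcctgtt
S100A14 (chr1:153616326-153616475, minus strand): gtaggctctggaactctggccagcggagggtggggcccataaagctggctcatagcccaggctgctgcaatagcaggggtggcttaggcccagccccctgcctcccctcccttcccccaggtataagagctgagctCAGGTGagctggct
AP1M2 holds 3 matches, all reading CACCTG on the gene's strand, and CRB3 holds 3, all reading CAGGTG. RAB25 and S100A14 hold 1 each. As given above, these 4 genes had log2 changes of -3.20, -2.03, -5.74 and -3.38.

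The regulators of the epithelial state were mostly lower, and several EMT factors higher. Of 19 epithelial transcription and splicing regulators tested, 12 fell and 1 rose, with a median of -1.91. GRHL1, a grainyhead-like transcription factor of epithelia, read 1809.7, 1661 and 1704 on the MII arrays and 123, 100.2 and 111 on the MIII arrays and fell by 3.75 ± 0.10 in log2. Its relative GRHL2, which activates junction genes, read 1145, 1222 and 1286 on the MII arrays and 211, 191 and 153 on the MIII arrays and fell by 2.61 ± 0.15. The third member, GRHL3, went the other way, reading 109, 81.1 and 101 on the MII arrays and 243, 231 and 276 on the MIII arrays, a rise of 1.22 ± 0.17 that was short of 2-fold with a larger offset (0.94). Arrays of MII and MIII did not overlap for any of the 3. ESRP1, the splicing regulator that sets epithelial exon choice, read 4979, 4783 and 4817 on the MII arrays and 668, 691 and 700.4 on the MIII arrays and fell by 2.79 ± 0.06. The ETS factor ELF3 fell by 3.14 ± 0.08, ZNF750, a driver of epidermal differentiation, fell by 3.69 ± 0.27 and OVOL2, a repressor of ZEB1, fell by 2.30 ± 0.08. The OVOL2 call was lost on its brightest suffix-free probe set (-0.62).

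Of 16 EMT transcription factors tested, 7 rose and 1 fell, with a median of 0.85 (0.565 over 19 without the filter), beside 6.17% of all genes that rose. ZEB2 read 12.5, 1.3 and 2.4 on the MII arrays and 264, 192 and 279 on the MIII arrays and rose by 3.49 ± 0.40 (limma adjusted p = 6.11e-06). ZEB1 read 10.3, 37.4 and 34 on the MII arrays and 402, 366 and 386 on the MIII arrays and rose by 3.20 ± 0.38 (limma adjusted p = 9.08e-06). Both zinc finger repressors were thus under the pooled median on every MII array and above it on every MIII array. The forkhead factor FOXC2 rose by 2.25 ± 0.13, the E protein TCF4 by 1.67 ± 0.11 and the chromatin protein HMGA2 by 1.62 ± 0.06. TWIST1 read 663, 573 and 677 on the MII arrays and 1608, 1476 and 1474 on the MIII arrays and rose by 1.23 ± 0.10, and the T-box factor TBX3 rose by 1.33 ± 0.16, a call lost when its probe sets were averaged (0.95). The forkhead factor FOXQ1 fell by 1.26 ± 0.07. The SNAI genes and TWIST2 were short of 2-fold: SNAI2 read 2266 ± 85.0 in MII and 4156 ± 103 in MIII (0.87 ± 0.06), TWIST2 gave 0.83 ± 0.12, and SNAI1, whose MII and MIII arrays overlapped, gave 0.57 ± 0.38.

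**Figure D3:**
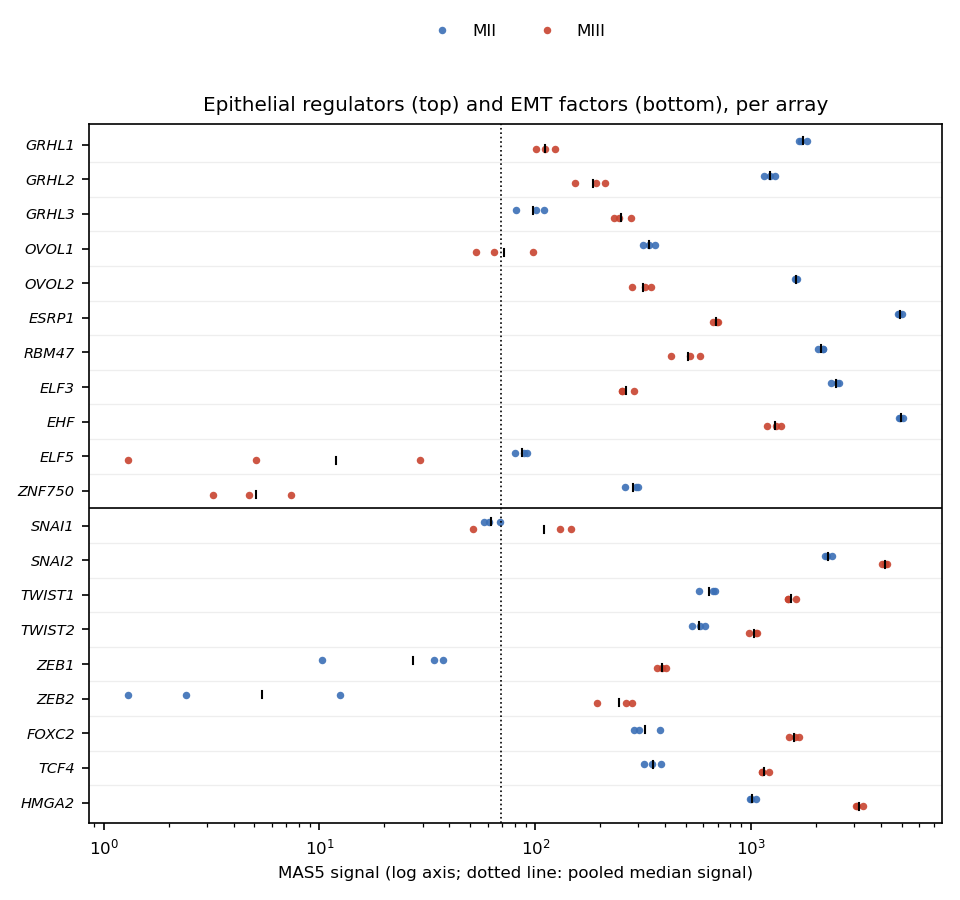
MAS5 signal on each array for 11 epithelial regulators (upper rows) and 9 EMT factors (lower rows), on a log axis, with MII arrays in blue, MIII arrays in red, a black tick at each mean of 3 arrays and a dotted line at the pooled median of 69.3. GRHL1, GRHL2, ESRP1 and ELF3 are lower on all MIII arrays, GRHL3 is higher, ZEB1 and ZEB2 cross the dotted line upwards, and the SNAI1 arrays of the lines overlap.

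Desmosomes and keratins changed in part. Of 12 desmosome genes tested, 5 fell and 0 rose (median -0.81). DSC2 (desmocollin 2) fell by 3.05 ± 0.08 in log2, JUP (plakoglobin), which links desmosomal and classical cadherins to the cytoskeleton, fell by 2.26 ± 0.06 and DSG3 (desmoglein 3) fell by 2.04 ± 0.08. The plakin PPL fell by 1.62 ± 0.09 and the plakophilin PKP2 fell by 1.21 ± 0.07. The other desmosomal cadherins were not called, with -0.01 ± 0.08 for DSG2 and 0.14 ± 0.08 for DSC3. Of 13 keratins tested on the list, 7 fell and 0 rose (median -1.16). After KRT15, the log2 changes were -4.28 ± 0.27 for KRT13, -4.25 ± 0.12 for KRT16, which marks stressed keratinocytes, -2.80 ± 0.26 for KRT23, -2.53 ± 0.39 for KRT4, -2.24 ± 0.11 for KRT80 and -1.16 ± 0.11 for the basal keratin KRT14. KRT5, the usual partner of KRT14, gave 0.03 ± 0.04, and KRT7, KRT8 and KRT18 of simple epithelia gave -0.14 ± 0.04, -0.75 ± 0.04 and -0.65 ± 0.05, none of them called. KRT5 and KRT18 were thus bright in both lines, as their values at the start show.

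Keratinocyte differentiation genes and kallikreins had 21 of 30 tested members lower and 4 higher (median -2.28). Of 11 kallikreins tested, on the list or not, 5 fell and 0 rose, KLK8 among them with a log2 change of -3.69 ± 0.24. KLK10 read 19651, 18287 and 19786 on the MII arrays and 209, 198 and 169.8 on the MIII arrays, KLK6 10497, 10209 and 10559 on the MII arrays and 89.7, 137 and 119 on the MIII arrays and KLK5 15976, 15807 and 16858 on the MII arrays and 283, 316 and 343 on the MIII arrays. These 3 proteases were bright on every MII array and far dimmer, though above the pooled median, on every MIII array. Of 7 clade B serpins tested, most of which are intracellular protease inhibitors, 5 fell, led by SERPINB13 at -4.89 ± 0.37. SERPINB3 and SERPINB4, which are near-identical in sequence so that their probe sets may share signal, had changes of -3.68 ± 0.10 and -1.84 ± 0.31. SERPINB5 (maspin) was not called, at -0.88 ± 0.05. Of 5 small proline-rich proteins tested, components of the cornified envelope, 4 fell: SPRR1B at -4.52 ± 0.10, SPRR1A at -3.62 ± 0.19 (-5.70 on its suffix-free probe set), SPRR3 at -3.13 ± 0.20 and SPRR2B at -2.12 ± 0.23. LCN2, a siderophore-binding secreted protein, read 5742, 5287 and 5132 on the MII arrays and 231, 289 and 274 on the MIII arrays and fell by 4.26 ± 0.09. The members that rose were the calprotectin subunits S100A8 (1.80 ± 0.34) and S100A9 (1.69 ± 0.12), the transglutaminase TGM2 (1.60 ± 0.13) and SBSN (1.58 ± 0.44, or 0.88 with a larger offset).

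Among markers of mammary luminal cells, 6 of 11 tested fell and 0 rose (median -1.43, or -0.773 over 18 without the filter). Besides CD24 and ERBB3 these were the mucin MUC1 (6384, 6084 and 6362 on the MII arrays and 333, 321 and 355 on the MIII arrays, a log2 change of -4.15 ± 0.11), the secreted protein AGR2 (-3.45 ± 0.14), the estrogen receptor ESR1 (-2.44 ± 0.27) and the pioneer factor FOXA1 (-1.43 ± 0.14). Of 11 basal markers tested, 2 fell, KRT14 and TRIM29 (-1.88 ± 0.06), and 2 rose, the neurotrophin receptor NGFR (1.20 ± 0.29) and the membrane peptidase MME (3.15 ± 0.39), with a median of -0.16. NGFR was short of 2-fold with a larger offset (0.88) and without MII replicate 1 (0.85). The summed signal of the 18 luminal markers on the array was 89992 to 93120 in MII and 38044 to 39198 in MIII, with 5 of them under the pooled median on all 6 arrays. Bright members weigh most in this sum, such as CD24, with means of 22527 in MII and 747 in MIII. KRT18 and KRT8, not called as given above, count in it too. The summed signal of the 11 basal markers was 78073 to 81317 in MII and 63375 to 65913 in MIII. In bulk RNA, fewer cells of a type and less RNA per cell cannot be told apart.

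Mesenchymal adhesion and cytoskeletal genes were higher for 10 of 20 members tested and lower for 1 (median 1.195, or 0.744 over 22 without the filter). VIM (vimentin), the intermediate filament of mesenchymal cells, read 1379.9, 1212 and 1282 on the MII arrays and 35488, 36283 and 33546 on the MIII arrays and rose by 4.75 ± 0.06 (limma adjusted p = 2.18e-15). CDH2, the neuronal cadherin, read 130.0, 174 and 113 on the MII arrays and 1794, 2130.3 and 2373 on the MIII arrays and rose by 3.76 ± 0.17. CDH11, a cadherin of mesenchymal cells, rose by 3.25 ± 0.28, and the contractile proteins MYL9 and TAGLN by 2.64 ± 0.36 and 2.56 ± 0.19. MYL9 gave 1.38 with averaged probe sets, and TAGLN turned its direction on its brightest suffix-free probe set, which gave -0.49 and no call. In each of VIM, CDH2 and CDH11 the lines were fully separated, and CDH11 and MYL9 lay under the pooled median in MII. S100A4, a calcium-binding protein often high in motile cells, fell by 1.54 ± 0.10.

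Collagens and matrix glycoproteins rose for 24 of 40 members tested and fell for 1, the basement membrane protein NID2 (-1.70), with a median of 1.59, or 0.955 over 49 members without the filter. After SPARC, FN1, COL6A1, POSTN and COL6A2, COL3A1, a fibrillar collagen, read 3.6, 1.7 and 9.2 on the MII arrays and 623, 701 and 633 on the MIII arrays and rose by 4.87 ± 0.34. The leucine-rich proteoglycan DCN (decorin) read 79, 74.6 and 71.5 on the MII arrays and 2491, 2639 and 2404 on the MIII arrays and rose by 4.76 ± 0.29 (3.11 on its suffix-free probe set), and VCAN (versican) rose by 4.59 ± 0.13. Of 23 collagen chains tested, on the list or not, 11 rose and 0 fell. These included all 3 chains of collagen VI tested (COL6A3 by 3.48 ± 0.34), the basement membrane chains COL4A1 (2.52 ± 0.06) and COL4A2 (1.62 ± 0.06), COL3A1, COL5A3 (3.90 ± 0.34) and COL7A1, the anchoring fibril collagen (3.32 ± 0.31, or 2.04 on its suffix-free probe set). The chains COL18A1, COL27A1 and COL9A3, which are not on the list, rose by 3.15 ± 0.31, 2.93 ± 0.22 and 1.18 ± 0.36. COL1A1 was not called, with 243 ± 33.2 in MII and 213 ± 39.2 in MIII and a log2 change of -0.18 ± 0.18. Fibrillin FBN1 rose by 3.48 ± 0.22 and lysyl oxidase LOX, which cross-links collagen, by 3.06 ± 0.12. Markers of fibroblasts moved with these genes: their summed signal over the 12 on the array was 1207 to 1252 in MII and 6598 to 6884 in MIII, and 5 of the 7 that passed the filter rose, with a median over all 12 of 0.164 (DCN, COL3A1, POSTN, LUM and THY1, the last by 3.71 ± 0.22). Of the same 12 markers, PDGFRA, PDGFRB, COL1A2, DPT and PDPN stayed under the pooled median on all 6 arrays. DCN, COL3A1, POSTN and LUM belong to the matrix list as well. Whether cells of another type add to the matrix signal was not tested.

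Integrins and laminins had 6 of 23 tested members higher and 0 lower (median 0.21). Of 7 laminin chains, LAMA4 (2.38 ± 0.09), LAMB1 (1.77 ± 0.06) and LAMC1 (1.54 ± 0.07) rose, while LAMB3 of the epithelial laminin-332 gave -0.31 ± 0.05 and was not called. The LAMA4 call was lost on its brightest suffix-free probe set (0.58). Of 17 integrin subunits tested, on the list or not, 3 rose, and ITGB2 and ITGB7 of leukocyte integrins had changes of -2.39 ± 0.16 and -2.09 ± 0.41, the latter under the pooled median in MIII. Of those that rose, ITGA5, the alpha chain of the fibronectin receptor, read 635, 696 and 715 on the MII arrays and 3058, 2964 and 2843 on the MIII arrays and rose by 2.09 ± 0.07, ITGAV rose by 1.49 ± 0.07 and ITGA1 by 1.05 ± 0.25. The ITGA1 change fell short of 2-fold with a larger offset (0.70) and in the fits without MII replicate 1 (0.98), MIII replicate 1 (0.96) and MIII replicate 2 (0.95). The hemidesmosome integrins ITGA6 and ITGB4 gave 0.03 ± 0.06 and -0.13 ± 0.06.

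Matrix-degrading proteases and their inhibitors had 7 of 22 members higher and 2 lower (median 0.53). MMP2, a gelatinase, read 94.7, 174 and 133 on the MII arrays and 1689.8, 1547 and 1731 on the MIII arrays and rose by 3.49 ± 0.24. MMP19 rose by 4.41 ± 0.37 from under the pooled median, ADAM12 by 2.72 ± 0.08, the membrane-type protease MMP16 by 2.72 ± 0.51 and ADAMTS1 by 2.34 ± 0.35. TIMP1, a secreted inhibitor of metalloproteinases, read 12548, 11762 and 13020.1 on the MII arrays and 41916, 41897 and 40606 on the MIII arrays and rose by 1.74 ± 0.06, so that a protease inhibitor and several proteases were higher in the same line. MMP28 fell by 1.52 ± 0.07 and ADAM15 fell by 1.01 ± 0.11. The ADAM15 change was short of 2-fold with a larger offset (-0.98), with equal medians (-0.97), quantile (-0.98) or cyclic loess scaling (-0.98), and without MII replicate 2 (-0.97), MIII replicate 1 (-0.94) or MIII replicate 3 (-0.97). In plasminogen activation, 5 of 11 members rose and 1 fell (median 0.79), but with suffix-free probe sets alone 2 of 9 rose and the median was 0.017. SERPINE2, an inhibitor of thrombin and of plasminogen activators, read 3100.1, 2937 and 2624 on the MII arrays and 38883, 39790.5 and 39166 on the MIII arrays and rose by 3.76 ± 0.06. The activators PLAT and PLAU rose by 2.58 ± 0.07 and 1.67 ± 0.12, and the urokinase receptor PLAUR by 1.08 ± 0.06, a call lost on its suffix-free probe set (0.24) and on the mean of its probe sets (0.94). SERPINF1, a serpin that opposes blood vessel growth, rose by 1.37 ± 0.36 and was just short of 2-fold with a larger offset (1.00). F3, tissue factor, fell by 1.33 ± 0.10.

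In TGF-beta and BMP signalling, 13 of 38 members rose and 2 fell (median 0.43), but with suffix-free probe sets alone 5 of 28 rose, 2 fell and the median was -0.022. The ligand TGFB1 read 331, 409.8 and 349 on the MII arrays and 4690.4, 4158 and 4301 on the MIII arrays and rose by 3.53 ± 0.09 (limma adjusted p = 9.81e-13). LTBP1, which holds latent TGF-beta in the matrix, read 474, 538 and 506 on the MII arrays and 4123, 4273 and 4049 on the MIII arrays and rose by 2.99 ± 0.08, and 3 of the 4 latent TGF-beta binding proteins tested rose, LTBP2 by 1.46 ± 0.08 and LTBP4 by 1.81 ± 0.30, a call lost with averaged probe sets (0.93). The secreted glycoprotein FSTL1 rose by 3.18 ± 0.11. Of the 4 helix-loop-helix inhibitors of the ID family, which respond to BMP, ID3 and ID2 rose by 2.23 ± 0.08 and 1.31 ± 0.12, and ID1 and ID4 were not called, at 0.50 ± 0.06 and 0.79 ± 0.49. The inhibitory SMAD6 and SMAD7 rose by 1.64 ± 0.29 and 1.58 ± 0.16. The falls were those of INHBB, the activin beta B subunit (-3.61 ± 0.38), and NOG (noggin), a BMP antagonist (-1.92 ± 0.18). The receptors TGFBR1 and TGFBR2 and the signal carriers SMAD2, SMAD3 and SMAD4 were not called, with changes from -0.23 (SMAD2) to 0.54 (TGFBR1).

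All 6 insulin-like growth factor binding proteins tested rose, and the IGF and CCN list had 9 of 22 members higher and 1 lower (median 0.67). The 22 are those of 27 on the array that passed the filter. IGFBP4, IGFBP5 and CCN3 lay under the pooled median on all MII and MIV arrays. They passed only because they were high in MIII, so the filter favoured these counts of rises. IGFBP4 read 10.0, 13 and 49.1 on the MII arrays and 6596, 6277 and 6357 on the MIII arrays. IGFBP2 read 53.3, 81.1 and 72.9 on the MII arrays and 2249, 2534 and 2121 on the MIII arrays and rose by 4.74 ± 0.13. IGFBP5, IGFBP7, IGFBP6 and IGFBP3 rose by 3.48 ± 0.44, 2.53 ± 0.11, 2.18 ± 0.08 and 1.76 ± 0.12, with IGFBP5 at 1.39 when its probe sets were averaged. IGFBP4, IGFBP2 and IGFBP5 started near or under the pooled median in MII, while IGFBP3, IGFBP6 and IGFBP7 were already bright there. All 3 CCN proteins tested, secreted matrix-associated signals, rose: CCN3 as above, CCN2 by 2.08 ± 0.12 and CCN1 by 1.20 ± 0.14. The insulin receptor INSR fell by 1.30 ± 0.14 (-0.94 on its suffix-free probe set, short of 2-fold), and the receptor IGF1R gave 0.30 ± 0.07, not called.

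In WNT signalling 3 of 26 members rose and 3 fell, beside 6.17% and 5.55% of all genes. The list median was 0.16, or 0.022 over 37 members without the filter. WNT5A, a ligand of beta-catenin-independent signalling, read 102, 49.6 and 90.2 on the MII arrays and 812, 895 and 839 on the MIII arrays and rose by 3.17 ± 0.36, the transcription factor LEF1 rose by 2.50 ± 0.31 and the receptor FZD2 by 1.24 ± 0.13. FZD10 fell by 1.85 ± 0.45, and the ligands WNT7B and WNT7A had changes of -1.10 ± 0.18 and -1.002 ± 0.31. These 3 falls were short of 2-fold with a larger offset (-0.93, -0.80 and -0.56), that of WNT7B also with averaged probe sets (-0.63), and that of WNT7A also with equal medians (-0.97) and without MII replicate 1 (-0.81), MII replicate 2 (-0.99) or MIII replicate 1 (-0.81). In NOTCH signalling 3 of 16 members rose and 1 fell (median 0.17). The ligand DLL1 rose by 2.89 ± 0.33, the target HEY1 by 2.65 ± 0.20 and the glycosyltransferase LFNG, which tunes ligand choice, by 1.33 ± 0.23. The receptor NOTCH3 fell by 1.07 ± 0.14, a change short of 2-fold with a larger offset (-0.97), with averaged probe sets (-0.97) and without MII replicate 1 (-0.90) or MIII replicate 3 (-0.996).

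Both lines share activated HRAS as background, and the HRAS signal itself was 13590.0 ± 354 in MII and 16245 ± 884 in MIII, not called (0.26 ± 0.05). Of 27 ERBB receptors, EGF ligands and genes of ERK output, 4 rose and 1 fell (median 0.027, or 0.14 over 29 without the filter). With suffix-free probe sets alone 2 of 22 rose and 0 fell. The MAP kinase phosphatases DUSP1 and DUSP6 rose by 2.20 ± 0.07 and 1.15 ± 0.06, the ETS factor ETV5 by 1.45 ± 0.07 and the ligand EREG by 1.35 ± 0.07. The ETV5 change was 0.98 on its brightest suffix-free probe set. The receptor ERBB2 read 1720.1, 1598 and 1849.8 on the MII arrays and 804, 709 and 700.5 on the MIII arrays and fell by 1.20 ± 0.08, while EGFR gave -0.21 ± 0.07. Of 13 AP-1 and immediate early genes, 0 were called in either direction, and the member with the smallest p was EGR1 (0.93 ± 0.06). EGR1 passed 2-fold when its probe sets were averaged (1.07) and was called on another probe set (1.33), while a further one gave 0.95. Among 28 ephrins and other receptor kinase genes 4 rose and 4 fell (median -0.06): the ligand EFNA3 fell by 2.73 ± 0.34, the receptor EPHA1 fell by 1.94 ± 0.11 and the growth factor PDGFB fell by 2.11 ± 0.33, and the co-receptor NRP1 rose by 1.68 ± 0.07 and the growth factor PDGFA by 1.22 ± 0.10.

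Among interleukins, chemokines and NF-kB genes, 14 of 35 members rose and 5 fell (median 0.72, or 0.389 over 50 without the filter). Of 6 CXC chemokines tested, on the list or not, 4 rose and 2 fell. CXCL1, a neutrophil attractant, read 698, 559.9 and 586 on the MII arrays and 6742, 6736 and 6326 on the MIII arrays and rose by 3.39 ± 0.11 (limma adjusted p = 1.09e-11). CXCL2, CXCL8 and CXCL3 rose by 2.74 ± 0.14, 2.03 ± 0.06 and 1.85 ± 0.18, and CXCL16, which is anchored in the membrane, fell by 1.89 ± 0.17 and CXCL17 fell by 2.57 ± 0.26. IL6 read 55.8, 21.1 and 49.4 on the MII arrays and 442, 324 and 378 on the MIII arrays and rose by 2.77 ± 0.43, with its signal transducer IL6ST at 1.94 ± 0.06. The colony-stimulating factors CSF3 and CSF1 rose by 3.01 ± 0.33 and 2.16 ± 0.16. In the interleukin 1 family the agonists IL1A and IL1B rose by 1.84 ± 0.20 and 1.59 ± 0.11, the IL1A call being lost on its suffix-free probe set (0.17), while the receptor antagonist IL1RN read 2066, 1827 and 1716 on the MII arrays and 132, 90.0 and 114 on the MIII arrays and fell by 3.86 ± 0.12. IL18, of the same family, fell by 1.48 ± 0.07. The subunits NFKB1 and RELA were not called, at 0.24 ± 0.07 and -0.10 ± 0.07.

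Interferon-stimulated genes had 9 of 34 members higher and 2 lower (median 0.42). After BST2, OAS2, an enzyme that activates RNA decay in infected cells, read 41.3, 37.9 and 6.6 on the MII arrays and 577, 733 and 736 on the MIII arrays and rose by 3.99 ± 0.32. IFI44L rose by 3.61 ± 0.21 and IFI6 by 2.76 ± 0.40. Of 4 IFITM genes tested, 3, whose proteins hinder viral entry, rose: IFITM1 by 3.22 ± 0.12, IFITM2 by 3.15 ± 0.11 and IFITM3 by 1.73 ± 0.08, although these genes are so alike that their probe sets may share signal. Other members of the same response went the other way or were not called: OAS1 fell by 1.52 ± 0.15 and SAMD9 fell by 1.63 ± 0.09, and ISG15 gave 0.15 ± 0.13. In MHC class I presentation 6 of 20 members rose and 0 fell (median 0.58), and with suffix-free probe sets alone 2 of 14 rose (median 0.349). The immunoproteasome subunits PSMB9 and PSMB8 rose by 2.65 ± 0.11 and 1.23 ± 0.13. HLA-G, HLA-B and HLA-C rose by 1.41 ± 0.09, 1.20 ± 0.09 and 1.11 ± 0.05, with the same caution about shared sequence, and the light chain B2M gave 0.37 ± 0.05. NLRC5, the transactivator of these genes, rose by 1.32 ± 0.33 from a signal under the pooled median, a change short of 2-fold with a larger offset (0.81).

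Genes of fatty acid uptake rose in part, 8 of 27 members being higher and 4 lower (median 0.15). Beside FABP4 and CD36, the fatty acid activating enzyme ACSL5 rose by 2.17 ± 0.20, PDK4, which restrains glucose oxidation, by 2.16 ± 0.09 and ANGPTL4, a secreted inhibitor of lipoprotein lipase, by 1.95 ± 0.08. LPL, lipoprotein lipase itself, read 432, 412 and 411 on the MII arrays and 118, 78 and 87.9 on the MIII arrays and fell by 1.97 ± 0.23. The adipogenic regulators PPARG and CEBPA were not called, at -0.43 ± 0.08 and -0.50 ± 0.16. The summed signal of the 12 adipocyte markers was 1502 to 1617 in MII and 21578 to 22002 in MIII, most of it FABP4 and CD36. Of these markers ADIPOQ, LEP, CIDEA and GPD1 lay under the pooled median on all 6 arrays, and 4 of the 8 tested rose (FABP4, CD36, PLIN1 and CIDEC). The PLIN1 call was just short of 2-fold with a larger offset (1.00).

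Cholesterol and fatty acid synthesis was lower for 5 of 27 members and higher for 0 (median -0.68), and with suffix-free probe sets alone 1 of 16 was lower (median -0.609). MVD, the mevalonate decarboxylase, read 681, 732 and 738 on the MII arrays and 209.7, 199.5 and 170.4 on the MIII arrays and fell by 1.80 ± 0.10. SREBF1, a master regulator of lipid synthesis, fell by 1.12 ± 0.12, the acetyl-CoA synthetase ACSS2 fell by 1.08 ± 0.09, and the sterol enzymes TM7SF2 and SC5D had changes of -1.35 ± 0.19 and -1.06 ± 0.07. TM7SF2 was short of 2-fold with a larger offset (-0.93) and SC5D on its suffix-free probe set (-0.94). Of the 22 members not called, all but FADS2 (0.17) had a change below 0, and the lowest was LSS at -0.98 ± 0.06.

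Of 35 genes of glycolysis and the hypoxia response, 6 rose and 0 fell (median 0.10). CA12, a membrane carbonic anhydrase, read 423, 582 and 652 on the MII arrays and 5842, 6347 and 5751 on the MIII arrays and rose by 3.41 ± 0.13, the glucose transporter SLC2A3 rose by 2.38 ± 0.39, the enolase ENO2 by 2.09 ± 0.39 and NDRG1 by 1.69 ± 0.09. BNIP3, a mitophagy receptor, rose by 1.07 ± 0.06 and the peptide hormone ADM by 1.03 ± 0.13. The ADM change was short of 2-fold with a larger offset (0.97) and without MII replicate 1 (0.94) or MIII replicate 3 (0.97). The widely used glycolytic enzymes LDHA, PGK1 and ENO1 gave -0.08 ± 0.05, -0.06 ± 0.04 and 0.10 ± 0.04, none of them called. Of 34 NRF2 targets and aldo-keto and aldehyde-oxidising enzymes, 4 rose and 3 fell (median 0.029). AKR1C3 rose by 1.99 ± 0.05, a value that near-identical AKR1C genes may share, heme oxygenase HMOX1 by 1.72 ± 0.16 and the cystine carrier SLC7A11 by 1.52 ± 0.09. The retinal-oxidising enzyme ALDH1A3 read 10171, 10052 and 10398 on the MII arrays and 2258, 2319.7 and 2408 on the MIII arrays and fell by 2.12 ± 0.05, and ALDH3B2 fell by 2.12 ± 0.21. Of 9 metallothionein and zinc response genes, 0 were called, and the member with the smallest p was the zinc exporter SLC30A1 (0.78 ± 0.08).

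Of 21 amino acid, glucose and other solute carriers, 4 rose and 2 fell (median 0.089). After SLC6A14, SLC2A12 of the glucose carrier family fell by 1.24 ± 0.39, though it was short of a call with a larger offset (-0.70) and without MII replicate 2 (limma adjusted p = 0.0876) or MIII replicate 2 (-0.86, limma adjusted p = 0.0758). The cation carrier SLC22A4 rose by 1.78 ± 0.18, SLC16A4 of the monocarboxylate carrier family by 1.49 ± 0.20, SLC2A6 of the glucose carrier family by 1.33 ± 0.20 and the amino acid carrier SLC6A15 by 1.20 ± 0.07, the last short of 2-fold with averaged probe sets (0.96). Of 31 genes that respond to unfolded proteins or amino acid stress, 1 was called (3.23%, beside 11.7% of all genes). That gene, DDIT3, rose by 1.04 ± 0.17, which was short of 2-fold with a larger offset (0.88) and without MII replicate 1 (0.85).

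Of 51 cell cycle and DNA replication genes tested, 3 rose, a share near the 6.17% of all genes, and 0 fell, beside 5.55% of all genes (median 0.20). CCND2, a D-type cyclin, read 51.9, 55.7 and 32.8 on the MII arrays and 1181, 1351 and 1236 on the MIII arrays and rose by 4.31 ± 0.30. Its relatives CCND1 and CCND3 gave 0.31 ± 0.06 and 0.22 ± 0.08, so the D-type cyclin that was dim in MII was the called one. FOXM1 and the mitotic kinesin KIF20A rose by 1.03 ± 0.07 and 1.02 ± 0.09, and both fell short of 2-fold in some fits that left out 1 array: FOXM1 without MII replicate 1 (0.96) or MIII replicate 1 (0.98), and KIF20A without MII replicate 2 (0.94) or MIII replicate 2 (0.98). The proliferation marker MKI67 read 3603 ± 295 in MII and 3405 ± 108 in MIII (-0.08 ± 0.06), and of 9 MCM genes of DNA replication tested 0 were called. Of 26 cyclin-dependent kinase inhibitors and p53 targets, 2 were called (7.69%, beside 11.7% of all genes). Both rose, CDKN1C by 1.25 ± 0.22, 0.99 with a larger offset, and PMAIP1 by 1.05 ± 0.07, 0.99 without MIII replicate 2. The p53 target CDKN1A gave -0.31 ± 0.06. Of 25 BCL2 family and apoptosis genes 2 fell and no other was called (8%, beside 11.7% of all genes, median -0.11). The death-associated kinase DAPK1 fell by 2.39 ± 0.15 and HRK fell by 1.30 ± 0.26, the latter short of 2-fold with a larger offset (-0.92).

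The title of the series names SDPR, now CAVIN2, a protein that coats caveolae. It read 992, 1268 and 1115 on the MII arrays and 532, 619 and 643 on the MIII arrays, and the lines did not overlap. Its log2 change of -0.89 ± 0.23 (limma adjusted p = 0.0054) was short of the 2-fold minimum, and its exact permutation p (two-sided) was 0.1, the lowest that 3 arrays against 3 allow. Its other probe set gave -0.84. Of 10 caveolae genes tested 1 was called (10%, beside 11.7% of all genes), and the list median was -0.37. That gene, EHD2, rose by 1.09 ± 0.07, a call lost when probe sets were averaged (0.97). The main coat proteins CAV1 and CAVIN1 gave -0.28 ± 0.04 and -0.07 ± 0.07. Of 12 housekeeping controls 0 were called (median -0.11), the one with the smallest p being YWHAZ at -0.42 ± 0.05. Leukocyte and endothelial markers gave no call other than CD14, which fell by 1.30 ± 0.10. The summed signal of 9 leukocyte markers was 2021 to 2242 in MII and 1089 to 1306 in MIII with 3 of them under the pooled median on all 6 arrays, and that of 9 endothelial markers was 207 to 385 and 344 to 415 with 8 of them under it.

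**Figure D4:**
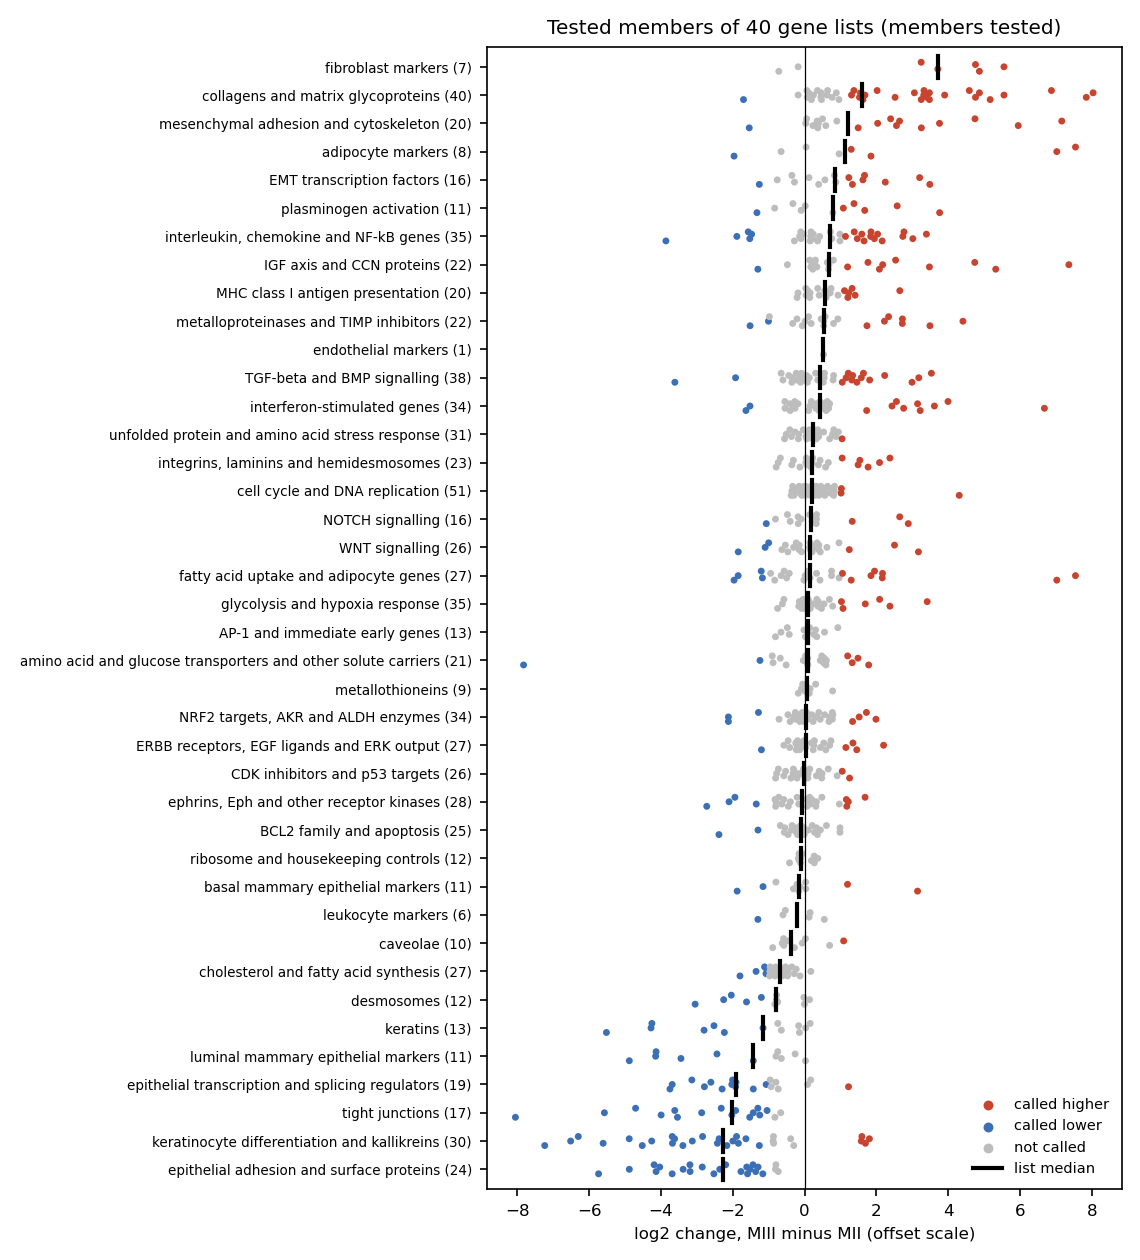
log2 change in MIII against MII on the offset scale for every tested member of the 40 gene lists, ordered by list median, with members called higher in red, called lower in blue, others in grey and the median as a black bar; the number of members tested is in parentheses, and some genes belong to several lists. Lists of epithelial adhesion, tight junctions and keratinocyte differentiation have medians near -2, the fibroblast marker and matrix lists lie above 1.5 among members that passed the filter (0.164 and 0.955 without it), and the cell cycle and housekeeping lists lie near 0.

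Median changes differed between chromosomes. On chromosome 12, 98 of 687 tested genes (14.3%) rose and 29 (4.22%) fell, and the median log2 change was 0.41. On chromosome 3, 62 of 703 genes (8.82%) rose, 31 fell and the median was 0.14. The share that rose was somewhat higher on chromosome 4 (9.22%) and chromosome 5 (8.9%), whose medians were -0.057 and 0, and the medians of the other chromosomes lay between -0.11 and 0. In genome order of GRCh38.p14, the tested genes were divided into blocks of 30 neighbours. All 23 blocks of chromosome 12 had a median above 0, from 0.17 to 0.77, and among the 407 full blocks of the genome the highest median was that of the block from CHPT1 to CRY1 on this chromosome, where 29 of 30 genes lay above 0, 8 rose and 0 fell. Chromosome 3 was divided within itself. Its first 10 blocks, from LOC105379426 to FHIT, had medians between -0.18 and 0.037, and its last 13 blocks, from CGGBP1 to LMLN, had medians between 0.22 and 0.42. IL1RAP, an accessory receptor of interleukin 1 that rose by 1.66 ± 0.10, opens the block with the highest of these. CLDN1, which fell, lies in the block before it, so a gene could fall within a stretch whose median was raised. Genomic copy number was not measured on these arrays, and its part in these shifts was not tested.

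**Figure D5:**
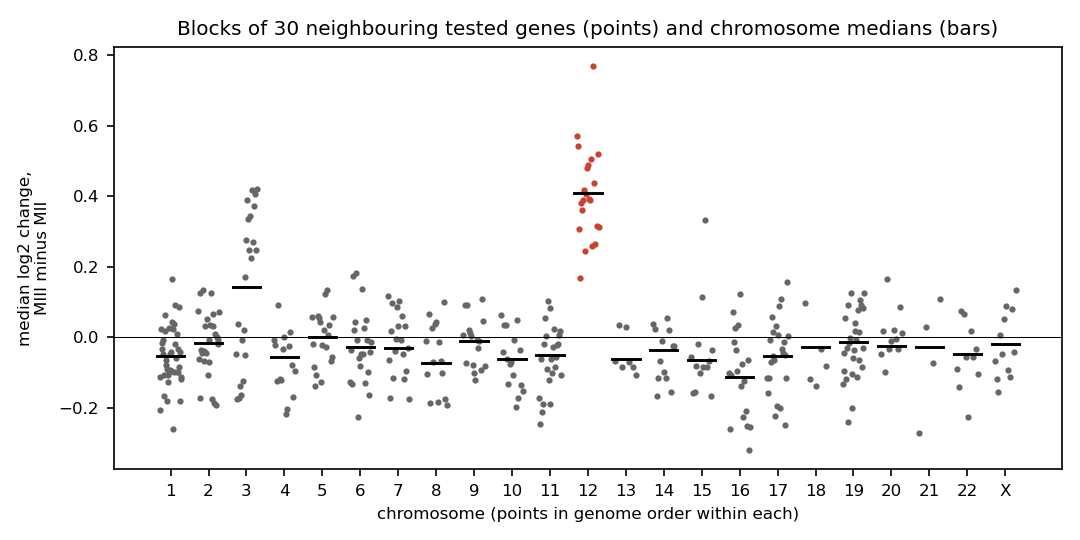
Median log2 change in MIII against MII of full blocks of 30 neighbouring tested genes (points, in genome order within each chromosome, chromosome 12 in red) and of all tested genes of each chromosome (black bars). Every chromosome 12 point lies above 0, and the second part of chromosome 3 lies between 0.22 and 0.42, above its first part.

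Other probe sets of the called genes were set beside the one that stood for each gene. Of the called genes, 683 had at least 1 other tested probe set, and of these 1118 other probe sets 1080 had a change of the same sign, 723 were called in the same direction and 0 were called in the opposite one. For 493 of the 683 genes at least 1 other probe set was called the same way. Genes whose call was lost on the brightest suffix-free probe set or with averaged probe sets are marked above where they are named. Single other probe sets short of a call are not all marked. Examples are those of LAMC1 (0.449), PDGFA (0.499), SLC7A11 (0.479), NRP1 (0.828), CCND2 (0.617), BNIP3 (0.898) and ERBB2 (-0.421), each with the sign of the change given above.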

How the data were processed

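Per the labels, total RNA was extracted with Trizol and biotin-labelled cRNA was put on Affymetrix arrays. The deposited values are intensity values, 1 linear MAS5 signal per probe set and array, per the submitters' processing notes. No source used here gives the MAS5 version or the detection calls. The authors' scaling shows in the trimmed mean over the middle 96% of values, 500.07 on every array, and signals were not rescaled. Of 54675 probe sets, 62 were controls, and the array annotation gives 1 gene for 41091, several for 1801 and none for 11721. Only probe sets with 1 gene were used, and 41043 of them matched the GRCh38.p14 gene table, which changed 0 symbols.

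Genes with a signal over the pooled median of 69.3 on 3 or more of the 9 arrays were tested, each by its probe set of highest mean signal. A group-means model on log2(signal + 18.3) was fitted to all 9 arrays with an intensity trend (limma 3.58.1 under R 4.3.3, 6 residual degrees of freedom). Benjamini-Hochberg adjustment ran over the 12594 genes together. On simulated data with 200 changed genes of the 12594, 44% were called at a true log2 change of 1, where the 2-fold minimum itself limits the share, 94.5% at 1.5 and 94.5% at 2, with at most 2 false calls.

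Named genes were the 15 largest rises and falls without overlapping arrays, CAVIN2, and from each list the called members with the largest changes, at most 6 (where none was called, the one with the smallest p). Members of families described in the text were added, with families counted by symbol over all genes tested after seeing the data. The genes, the 40 lists and the tests were chosen with earlier results of these data known. Lists are described by counts and medians, without a set test. The blocks of 30 genes and the motif count over genes with a single window were added after seeing the data. Alternatives were other offsets, scalings, filters, probe set choices, variance priors, thresholds, a replicate block, the 6 arrays alone and leaving out each array.

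The replicate numbers did not pair the arrays: deviations from the line means correlated at 0.039, 0.009 and -0.004 between MII and MIII arrays of the same number.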

Additional observations from a re-analysis of the deposited data

How the results depend on the processing

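The count of called genes stayed within 1.5 times of 1476 under every alternative offset, scaling, probe set choice and variance prior, with no filter, and with the 6 arrays alone, from 1129 (offset of the pooled median) to 1678 (no filter), and 0 genes were called in opposite directions. On the brightest suffix-free probe set TAGLN changed by -0.494 and GAS1 by -0.21, against their direction otherwise, and the cause was not tested. Values over 1.5 times smaller with the pooled median as the offset, but still called, were those of CGN (-2.23), ZNF750 (-2.24), KRT13 (-2.69), KRT4 (-1.48), INHBB (-2.29), PDGFB (-1.21), ESR1 (-1.60), ZEB2 (2.06), MYL9 (1.56), MMP16 (1.60), ADAMTS1 (1.45), CSF3 (1.85), IFI6 (1.69), IGFBP5 (2.17), LUM (1.85) and S100A8 (1.15). With averaged probe sets, beside those given above, the values of ERBB3 (-2.62), CDH11 (2.01), MMP19 (2.93), LEF1 (1.61), LUM (2.00), IL1A (1.16), COL27A1 (1.79) and GAS1 (3.08) were. With the replicate block 1483 genes were called, 781 higher and 702 lower. Leaving out 1 array gave 1449 to 1487 genes, 756 to 795 higher and 679 to 718 lower. With the filter at the pooled 75th percentile, 8318 genes were tested and 810 called, 391 higher and 419 lower. At an adjusted p under 0.01 and 4-fold, 499 were called (258 higher, 241 lower), without a fold minimum 5946 (2880 higher, 3066 lower), and with the 2-fold minimum itself tested in limma (treat) 747 (377 higher, 370 lower). The lower share of called genes ranged from 45.4% to 51.7%, and no scaling moved the median of all genes by over 0.1. Dim signals limit what ratios mean: 28 genes were under the pooled median on all MII arrays and above the pooled 75th percentile on all MIII arrays and 27 the reverse, against 254 and 179 when the pooled median served for both lines.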

Other observations

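Other genes went from the floor of the array in one line to a bright signal in the other, and outside the gene lists these were named after their values were seen. Among those that were bright in MIII were 3 complement genes, picked for that pattern. Complement genes were not counted as a family. C1S, a protease of the classical pathway, read 8.3, 2.5 and 8.5 on the MII arrays and 699, 733 and 722 on the MIII arrays and rose by 4.91 ± 0.28 in log2, C1R, its partner, rose by 3.53 ± 0.27, and CFI, which cleaves complement fragments, by 4.20 ± 0.25. The lines did not overlap for any of the 3. C1R and C1S both lie on chromosome 12, whose genes had a raised median. The long pentraxin PTX3, a soluble pattern receptor, rose by 5.01 ± 0.33, the lipid carrier APOE by 4.80 ± 0.26, the proteoglycan SDC2 (syndecan 2) by 4.95 ± 0.29 and RUNX2, a transcription factor of bone, by 3.58 ± 0.19 (1.72 with averaged probe sets). GAS1, a membrane protein of growth-arrested cells, read 31.3, 2.5 and 21.6 on the MII arrays and 906, 988 and 924 on the MIII arrays and rose by 4.79 ± 0.31, but its brightest suffix-free probe set gave -0.21 and no call.

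Genes that were bright in MII and under the pooled median on all MIII arrays included CEACAM5, the carcinoembryonic antigen. It read 1788, 1824 and 1899 on the MII arrays and 47.9, 49.6 and 26.3 on the MIII arrays and fell by 4.99 ± 0.20. FUT3, a fucosyltransferase that makes Lewis antigens, fell by 3.57 ± 0.16. The calpain CAPN8 fell by 4.29 ± 0.20, and PADI1, a protein-arginine deiminase of the epidermis, fell by 3.89 ± 0.14. SYNE4, a nuclear envelope protein that positions the nucleus in epithelial cells, fell by 4.93 ± 0.18. MACC1, a regulator of the receptor MET, fell by 4.16 ± 0.27, while MET itself gave -0.17 ± 0.09 and was not called.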
